A study of Sus scrofa with 12 samples.

Results

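NFKBIZ, NFKBIA, NFKB1, NFKB2, RELA, RELB, TNFAIP3 and TNFAIP6 are genes of the NF-κB system or respond to it. They encode subunits of the factor other than c-Rel, 2 proteins of the IκB family and the products of 2 genes that it induces. They were chosen by name, with their difference between extracellular vesicles (EVs) and mesenchymal stromal/stem cells (MSCs) already known and with NFKBIZ singled out because of it. Of the 8 genes, 7 were found among the 29658 entries of the mRNA table, either as a symbol or as the pig Ensembl identifier of that symbol. RELB had no entry under its symbol or identifier and was not analysed here. All 7 genes passed the filter on low counts, and since the difference between EVs and MSCs had a part in choosing them, that difference is described for them without a test.

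MSCs were grown from abdominal fat of 3 female domestic pigs aged 3 months, released with collagenase-H, cultured in medium with platelet lysate and used at passage 3. EVs were pelleted by ultracentrifugation from the supernatants of these MSCs. The groups carried no further treatment or allele, so each pig gave 1 MSC library and 1 EV library of messenger RNA, and 1 of each of small RNA. Reads counted on genes ranged from 11332330 to 12276855 in the 3 MSC libraries and from 10429085 to 12151384 in the 3 EV libraries. Replicates 1, 2 and 3 are separate pigs, named pigs 1, 2 and 3 below, and values listed by 3 follow that order. An EV library is a bulk sample, and fewer vesicles that carry a transcript cannot be told apart from less of it per vesicle. Likewise, every level is a share of its library and not an amount per cell or per vesicle.

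The libraries were checked against marker genes. Of the MSC markers, CD44 had 3603 to 10023 reads, NT5E 900 to 1816 and ENG 44 to 114 in a library, while THY1 was listed at 0 beneath an unnamed entry with 49577 reads that spans it. None of the 3 that could be tested differed between the groups past the thresholds used below. Of the EV markers, which are genes of vesicle proteins, CD63 had 8359 to 19616 reads in a library and CD81 319 to 676, and CD9 and ITGB1 had at most 7. The entries of CD9 and ITGB1 each share nearly all of their span with a second entry of the same gene at 0 reads. Their low counts are therefore not read as low levels. Of 6 leukocyte and macrophage markers, CD163 and LYZ were listed at 0, PTPRC and CSF1R had at most 10 reads in a library and CD68 18 to 56, whereas CD14 had 416 to 771. CD14 took most of the summed level of the list, with 45.7 ± 0.846 CPM in MSCs and 52.9 ± 9.55 CPM in EVs (SD, n = 3 each), where CPM are reads scaled by the library total after normalisation by the trimmed mean of M-values (TMM). It did not differ past the thresholds (log2 0.21, adjusted p = 0.630 from edgeR). The summed level of the list ranged from 48.7 to 51.1 CPM in MSCs and from 45.2 to 63.7 in EVs. For 4 endothelial markers the summed level ranged from 9.67 to 16.7 CPM in MSCs and from 1.64 to 6.59 in EVs, VWF was listed at 0, KDR had 1 read and CDH5 had no entry. PECAM1, an endothelial adhesion molecule, made up nearly all of that sum and was lower in EVs by the thresholds of the study given below, at -1.71 on the log2 scale with a standard error of 0.54, an unadjusted p of 0.0147 and an adjusted p of 0.249 in edgeR. The entries of CD14, PECAM1, LYZ and VWF share their span with another entry, and that used for CD163 measures 101 bases. Their counts are therefore uncertain, and values of 0 are not read as absence. The part of RNA from endothelial cells or from CD14-positive cells in the results below was not tested.

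NF-κB is a dimer of Rel-family proteins that waits in the cytoplasm, bound by an IκB protein, until inflammatory receptors activate the IκB kinases. The kinases mark the IκB protein for destruction, the dimer enters the nucleus, and among the genes that it switches on are its own brakes, such as the genes of IκBα and A20. In stromal cells of fat this system is known to drive the secretion of interleukins and chemokines.

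Among the IκB genes, NFKBIZ was higher and NFKBIA was lower in EVs. The level was 2.83-fold higher for NFKBIZ and 2.23-fold lower for NFKBIA. The subunit genes NFKB2, RELA and NFKB1 had log2 differences between -0.65 and -0.22. Of the genes that NF-κB induces, TNFAIP6 was 2.47-fold higher in EVs, whereas TNFAIP3 varied more between the EV libraries than between the groups.

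NFKBIZ (ENSSSCG00000011951, chromosome 13 from 166744538 to 166776678, minus strand, susScr3 assembly as listed in the submitters' processing notes) encodes IκBζ, an atypical IκB protein that acts in the nucleus and, with NF-κB p50, supports transcription of a set of secondary response genes such as IL6. Its read counts were 262, 197 and 219 in the MSCs of pigs 1, 2 and 3, against 655, 769 and 473 in their EVs. After TMM normalisation these were 20.3, 18.9 and 18.6 CPM in MSCs and 55.3, 60.1 and 47.9 CPM in EVs. Every EV library lay above every MSC library, and the MSC libraries were close to one another, with a coefficient of variation of 4.78%. The log2 difference within a pig was 1.45, 1.67 and 1.37 for pigs 1, 2 and 3, and the fitted log2 fold change was 1.50 (standard error 0.22). Leaving out 1 library at a time moved it between 1.43 and 1.58.

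NFKBIA (ENSSSCG00000001952, chromosome 7 from 69417309 to 69420851, plus strand) encodes IκBα, the classical inhibitor that holds NF-κB in the cytoplasm and that NF-κB itself induces. Its read counts were 848, 1081 and 644 in the MSCs of pigs 1, 2 and 3, against 450, 320 and 371 in their EVs. Normalised, the levels were 65.7, 103 and 54.6 CPM in MSCs and 38.0, 25.0 and 37.5 CPM in EVs. Every EV library lay below every MSC library, and pig 2 had both the most NFKBIA in its cells and the least in its EVs. The log2 fold change was -1.15 (standard error 0.32), it was -0.79, -2.05 and -0.54 within pigs 1, 2 and 3, and it was -0.84 without the MSC library of pig 2.

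**Figure D1:**
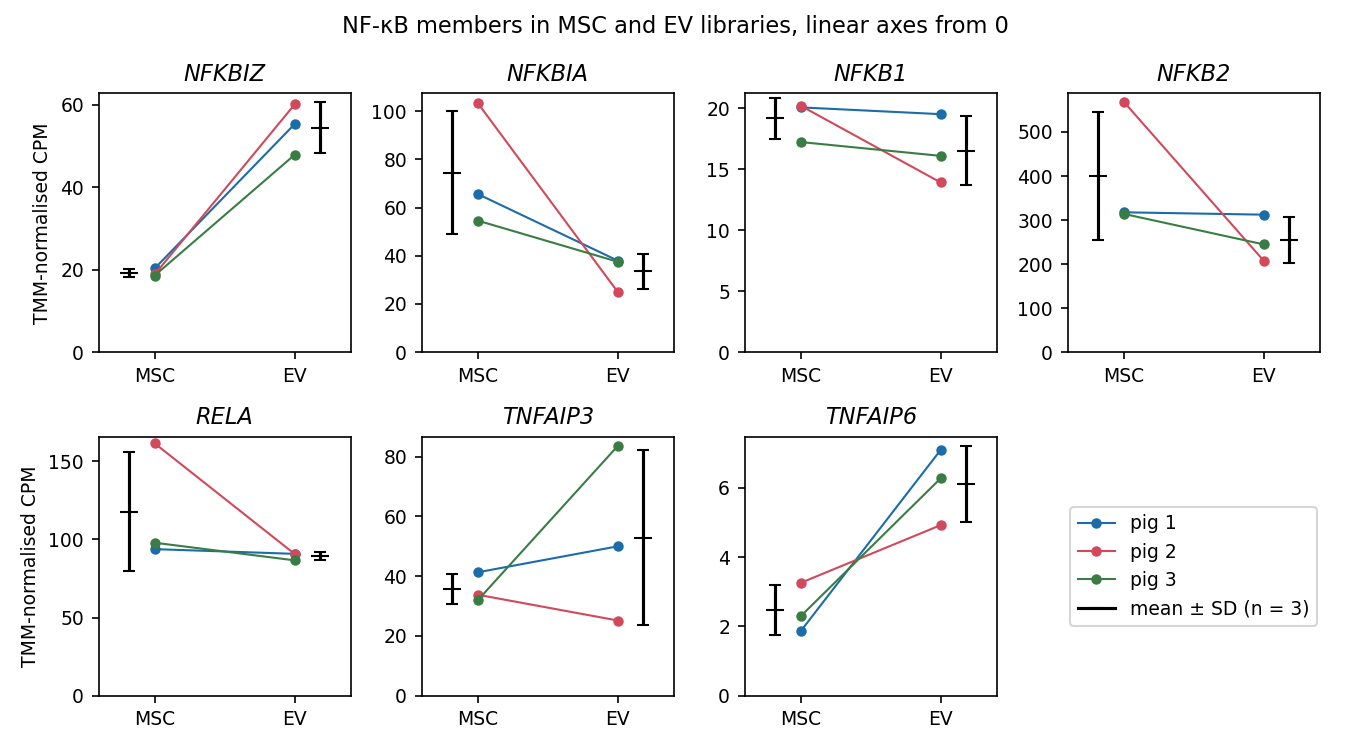
Level of each of the 7 genes in TMM-normalised CPM (vertical axes, linear from 0) in the MSC and EV libraries, with a line joining the libraries of each pig and black bars for the mean ± SD of 3 libraries. NFKBIZ lay between 18.6 and 20.3 CPM in MSCs and between 47.9 and 60.1 CPM in EVs, while NFKBIA lay between 54.6 and 103 CPM in MSCs and between 25.0 and 38.0 CPM in EVs.

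Inside a library, where scaling has no part, the ratio of the reads of both genes also differed between the groups, which shows unequal change and not the direction of either gene. For each read of NFKBIA there were 0.309, 0.182 and 0.340 reads of NFKBIZ in MSCs of pigs 1, 2 and 3, against 1.46, 2.40 and 1.27 in their EVs. The order of the 2 genes was therefore reversed in reads, with NFKBIA ahead in every MSC library and NFKBIZ ahead in every EV library. Reads are not divided by transcript length, and in the authors' RPKM, which are, the order was not reversed in every pig. There NFKBIZ stood at 5.72, 6.24 and 4.07 in the EVs of pigs 1, 2 and 3, and NFKBIA at 5.92, 3.91 and 4.81. Within a pig the ratio was 4.71, 13.2 and 3.75 times higher in EVs for pigs 1, 2 and 3.

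Against RELA, the gene of the main activating subunit, NFKBIZ had between 0.117 and 0.216 reads for each RELA read in MSCs and between 0.553 and 0.663 in EVs. Relative to NFKB1, which encodes p105 and its product p50, the ratio was between 0.934 and 1.08 in MSCs and between 2.84 and 4.32 in EVs. The ratio of the subunit genes NFKB2 and RELA, in contrast, ranged from 3.21 to 3.52 in MSCs and from 2.29 to 3.44 in EVs, so its groups overlapped. On the log2 scale the level of NFKBIZ minus the mean of the other 6 genes was -1.12 ± 0.32 in MSCs and 0.47 ± 0.44 in EVs (SD, n = 3 each). EV minus MSC was 1.24, 2.45 and 1.09 for pigs 1, 2 and 3.

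**Figure D2:**
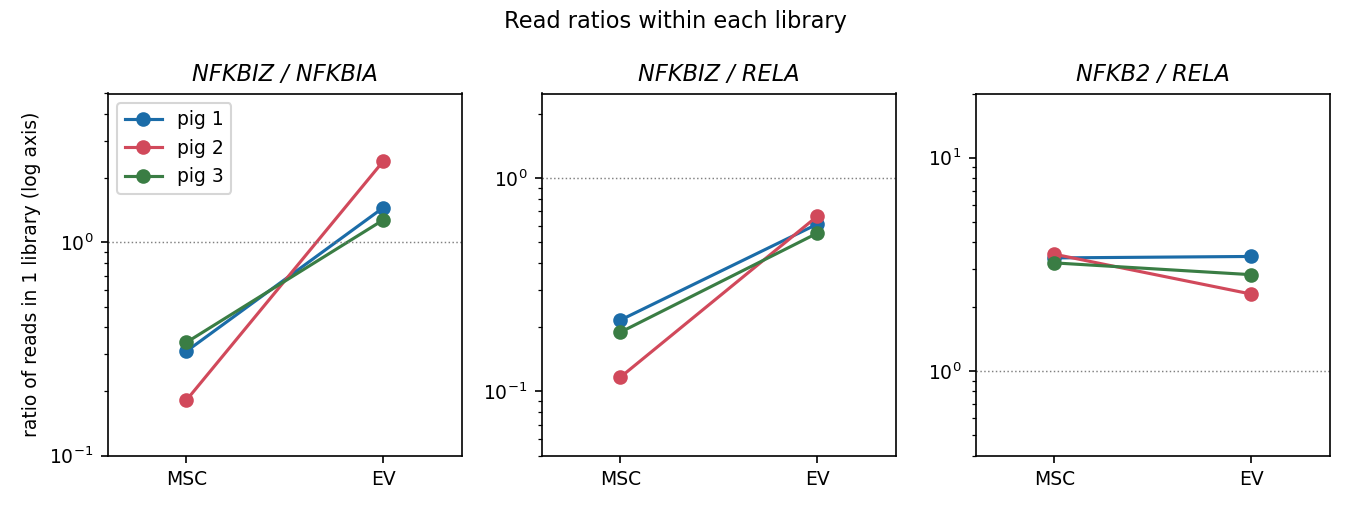
Ratio of the reads of 2 genes inside 1 library (log axes that each span the same fold range) for NFKBIZ over NFKBIA, NFKBIZ over RELA and NFKB2 over RELA, with a line for each pig from MSC to EV. The first ratio crosses 1 in every pig, from at most 0.340 in MSCs to at least 1.27 in EVs, while that of NFKB2 over RELA overlaps between the groups. Reads are not divided by transcript length, so a ratio of 1 does not mark equal levels.

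NFKB2 (ENSSSCG00000010580, chromosome 14 from 123260522 to 123270684, plus strand) encodes p100, the precursor of p52 and an inhibitor in its own right. With 4101, 5945 and 3703 reads from the MSCs of pigs 1, 2 and 3, against 3698, 2659 and 2419 from their EVs, it was the most read of the 7 genes in each library. In CPM these were 318, 569 and 314 in MSCs and 312, 208 and 245 in EVs. The MSC library of pig 2 stood well above the others, and the gap between the groups was that between 314 and 312 CPM. On the deposited RPKM scale, in which reads are divided by transcript length and library total, the groups overlapped. The log2 fold change of -0.65 (standard error 0.33) was -0.31 without the MSC library of pig 2, and within pigs 1, 2 and 3 it was -0.02, -1.45 and -0.36.

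RELA (ENSSSCG00000012981, chromosome 2 from 5698668 to 5707943, minus strand) encodes p65. MSCs of the 3 pigs gave 1211, 1687 and 1154 reads, their EVs 1075, 1160 and 856. Its level was 93.8, 161 and 97.9 CPM in MSCs and 90.8, 90.6 and 86.6 CPM in EVs, with a coefficient of variation of 2.64% in EVs against 32.2% in MSCs. The EV libraries all lay below the MSC libraries, yet pigs 1 and 3 had differences of only -0.05 and -0.18 on the log2 scale, while pig 2 had -0.83. The log2 fold change was -0.40 (standard error 0.27), and -0.10 without the MSC library of pig 2.

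NFKB1 (chromosome 8 from 127365561 to 127664001, plus strand, listed by symbol) gave 259, 211 and 203 reads from MSCs, against 231, 178 and 159 from EVs. The levels were 20.1, 20.2 and 17.2 CPM in MSCs and 19.5, 13.9 and 16.1 CPM in EVs, and the groups overlapped. The difference was -0.22 on the log2 scale (standard error 0.26). Its long span holds 4 other entries, of which UBE2D2 had 10628 reads, so its counts are uncertain.

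In pig 2, therefore, the cells held more NFKBIA, NFKB2 and RELA per library than those of the other pigs, and its EVs held the least NFKBIA. NFKB1 and NFKB2 were lowest in the EVs of pig 2 only after TMM, since in reads and in RPKM the EVs of pig 3 were lowest. The TMM factor of the same MSC library was 0.852, against 1.04 or more in the other 2 MSC libraries. Before that scaling, too, this library had the most reads of NFKBIA, NFKB2 and RELA among the MSC libraries, as the counts above show. Among the EV libraries, that of pig 3 had the low TMM factor, 0.853, against 1.14 and 1.06 in those of pigs 1 and 2.

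TNFAIP3 (ENSSSCG00000004154, chromosome 1 from 29825730 to 29841626, minus strand) encodes A20, a ubiquitin-editing enzyme that ends NF-κB signalling. MSCs gave 533, 353 and 376 reads of it, EVs 592, 322 and 826. The levels were 41.3, 33.8 and 31.9 CPM in MSCs and 50.0, 25.2 and 83.6 CPM in EVs. The EV library of pig 2 was the lowest and that of pig 3 the highest of all 6, so the EV libraries ranged beyond the MSC libraries on both sides. The log2 fold change of 0.57 (standard error 0.41) was 0.07 without the EV library of pig 3 and 0.92 without the EV library of pig 2.

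TNFAIP6 (ENSSSCG00000023716, chromosome 15 from 90396 to 102494, plus strand) encodes TSG-6, a secreted hyaluronan-binding protein that TNF and interleukin-1 induce and to which anti-inflammatory effects of MSCs have been attributed. It was among the less abundant transcripts, with 24, 34 and 27 reads from MSCs, against 84, 63 and 62 from EVs. These were 1.86, 3.25 and 2.29 CPM in MSCs and 7.09, 4.92 and 6.27 CPM in EVs, so all EV libraries were above all MSC libraries. The log2 fold change was 1.30 (standard error 0.38), and 1.93, 0.60 and 1.45 within pigs 1, 2 and 3. With limma on log2(RPKM + 1) it was 0.79, a scale that understates the change of low genes. All these values come from an entry of 711 bases that was matched by its Ensembl identifier. The entry listed by the symbol lies elsewhere on chromosome 15 with 0 reads, so the match is uncertain.

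In all, the groups did not overlap for 5 of the 7 genes, NFKBIZ and TNFAIP6 being above in EVs and NFKBIA, NFKB2 and RELA below. Among the 12392 entries tested, 14.3% had every EV library above every MSC library and 13.6% had every EV library below. Nothing is read from the 5 genes against these shares, as this difference had a part in their choice.

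**Figure D3:**
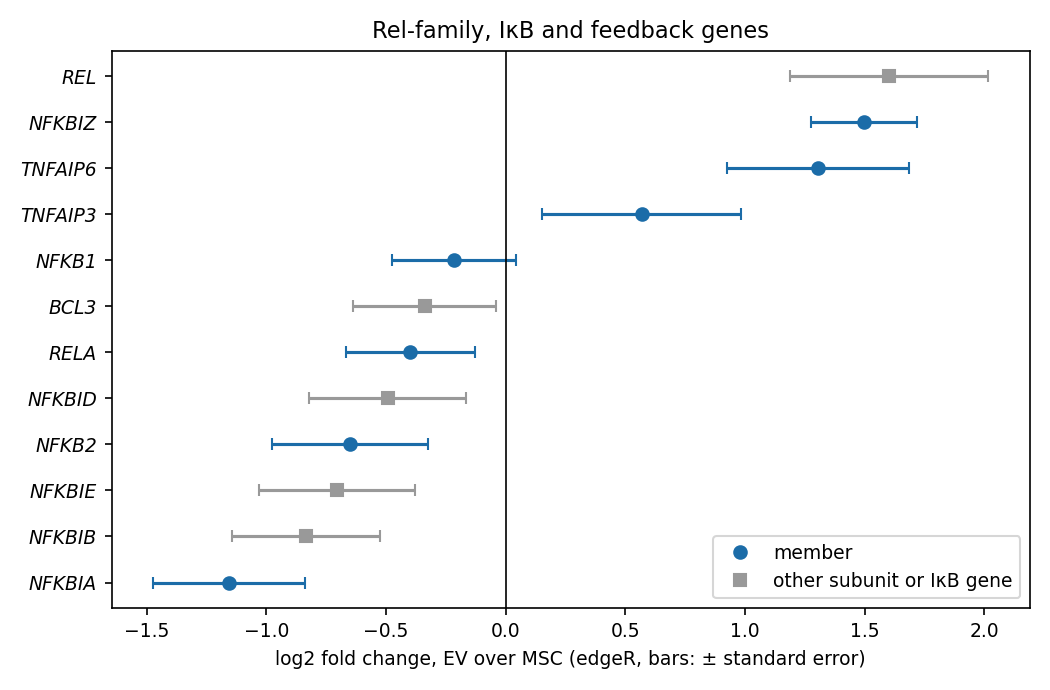
Log2 fold change of EV over MSC from edgeR, with bars of ± 1 standard error, for the 7 genes (circles) and for 5 other subunit and IκB genes (squares). NFKBIZ at 1.50 and REL at 1.60 stand at the top, and the IκB genes NFKBIA at -1.15 and NFKBIB at -0.84 at the bottom.

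Levels of different genes can be compared only per length of the transcript. By the authors' RPKM, the order in MSCs was NFKB2 at 32.0 ± 8.48, NFKBIA at 10.6 ± 2.72, RELA at 5.57 ± 1.23, NFKB1 at 5.19 ± 0.647, TNFAIP3 at 2.03 ± 0.452, NFKBIZ at 1.85 ± 0.253 and TNFAIP6 at 0.912 ± 0.171 RPKM (SD, n = 3 each). RELA and NFKB1 overlapped, as did TNFAIP3 and NFKBIZ, and the other neighbours did not. In EVs NFKB2 again led, at 21.2 ± 5.47 RPKM, and was clear of all others. It was followed by NFKBIZ at 5.34 ± 1.13, NFKBIA at 4.88 ± 1.01, NFKB1 at 4.55 ± 1.00 and RELA at 4.39 ± 0.593, and last came TNFAIP3 at 2.93 ± 1.33 and TNFAIP6 at 2.33 ± 0.482 RPKM. From NFKBIZ down, each gene overlapped with the next.

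The table lists several of these genes more than once, which limits the order. NFKBIA, RELA, TNFAIP3 and NFKB1 each have a second entry with 0 reads that shares most of the span of the entry used, and the second models measure 945 bases beside 1852 for NFKBIA, 1656 beside 5545 for RELA, 2358 beside 4728 for TNFAIP3 and 778 beside 988 for NFKB1. The second entry of TNFAIP6, also at 0 reads, lies elsewhere on chromosome 15 (from 157132380 to 157151740). NFKBIZ and NFKB2 had a single entry that no other entry overlapped. With the length of the second model taken off, the values in EVs become 21.4 ± 4.73 RPKM for NFKB1, 9.97 ± 2.06 for NFKBIA, 6.26 ± 0.845 for RELA and 5.84 ± 2.65 for TNFAIP3 (SD, n = 3 each), all with a mean above the 5.34 of NFKBIZ, and NFKB1 then stands beside NFKB2 at 21.2. In MSCs they become 24.4 ± 3.04 for NFKB1, 21.6 ± 5.55 for NFKBIA, 7.95 ± 1.76 for RELA and 4.05 ± 0.901 RPKM for TNFAIP3, which puts NFKB1 second after NFKB2. This setting was chosen after the values were seen and assumes that the shorter model lies inside the longer. NFKB2 stays ahead of NFKBIZ either way. The length cancels in the difference between EVs and MSCs of each gene, so the setting does not move that value. Whether reads were spread alike along the transcript in both groups was not tested.

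The 5 other subunit and IκB genes were tested in the same fit with all 12392 entries. Over all entries, edgeR called 0 (0%) by an adjusted p-value under 0.05 together with more than a 2-fold change, either higher or lower in EVs, and 1978 (16%) had an unadjusted p-value under 0.05. DESeq2 called 259 higher and 186 lower by the adjusted rule, and edgeR with the pig as a block 61 and 75. The thresholds of the study pair the same fold change with an unadjusted p-value under 0.05, and they are applied here to the p-value from edgeR, whereas the study took its own from another test. By them 5.55% of entries were higher and 3.57% lower in EVs.

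REL (ENSSSCG00000008388, chromosome 3 from 84967854 to 85003436) encodes c-Rel, the remaining activating subunit. MSCs gave 57, 21 and 52 reads of it, EVs 101, 135 and 138, and the groups were clear of each other. The fitted log2 fold change was 1.60 with a standard error of 0.41, an unadjusted p of 0.00528 and an adjusted p of 0.219 in edgeR, and REL passed the thresholds of the study. DESeq2 gave an adjusted p of 0.0178, and edgeR with the pig as a block gave 0.0907. REL is among the transcription factors that the study selected on these libraries, so its direction is not independent evidence. For each RELA read there were 0.0471, 0.0124 and 0.0451 REL reads in MSCs and 0.0940, 0.116 and 0.161 in EVs, and these ranges did not overlap.

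None of the other 4 IκB genes passed the thresholds, and their log2 fold changes were all negative. NFKBIB, which encodes IκBβ, had read counts of 740, 1123 and 712 from MSCs, against 583, 535 and 347 from EVs, and edgeR fitted -0.84 on the log2 scale with a standard error of 0.31 and an adjusted p of 0.275. NFKBIE, the gene of IκBε, had 585, 789 and 541 from MSCs, against 392, 311 and 444 from EVs, with a fitted value of -0.70, a standard error of 0.33 and an adjusted p of 0.330 in edgeR. Both genes had all their EV levels below all their MSC levels. The nuclear IκB genes NFKBID and BCL3, the closest in kind to NFKBIZ, had log2 fold changes of -0.49 and -0.34 with overlapping groups (adjusted p = 0.447 and 0.562 from edgeR). The entries of NFKBIB, NFKBID and BCL3 lie within the span of an entry for GALNS with 14423 reads, so that their counts are uncertain. NFKBIZ was thus the only one of the 6 IκB genes measured here with a positive log2 fold change, in the values given here and in each of the 12 alternatives run, and it was chosen for that difference.

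The wider pathway was read from lists of kinases, receptors and adaptors, brakes and target genes. Together with the 5 genes above they name 92 genes, of which 83 have an entry, 20 were listed at 0 reads, 7 had too few reads and 56 were tested. Of these 56, 2 were higher and 2 lower by the thresholds of the study, beside 5.55% and 3.57% of all entries. An unadjusted p-value under 0.05 in edgeR was found for 9, beside 16% of all entries, and 0 passed its adjusted threshold. Over all entries DESeq2 called 259 higher and 186 lower by the adjusted rule, and 3 of the 56 passed it. With the pig as a block, 4 were higher and 5 lower by the thresholds of the study, beside 8.01% and 5.17% of all entries. The groups did not overlap for 9 genes above (16.1%) and 6 below (10.7%), against 14.3% and 13.6% of all entries. Their median log2 fold change was -0.13, against -0.02 for all entries. Of the 56, 32 have an entry that shares its span with another.

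**Figure D4:**
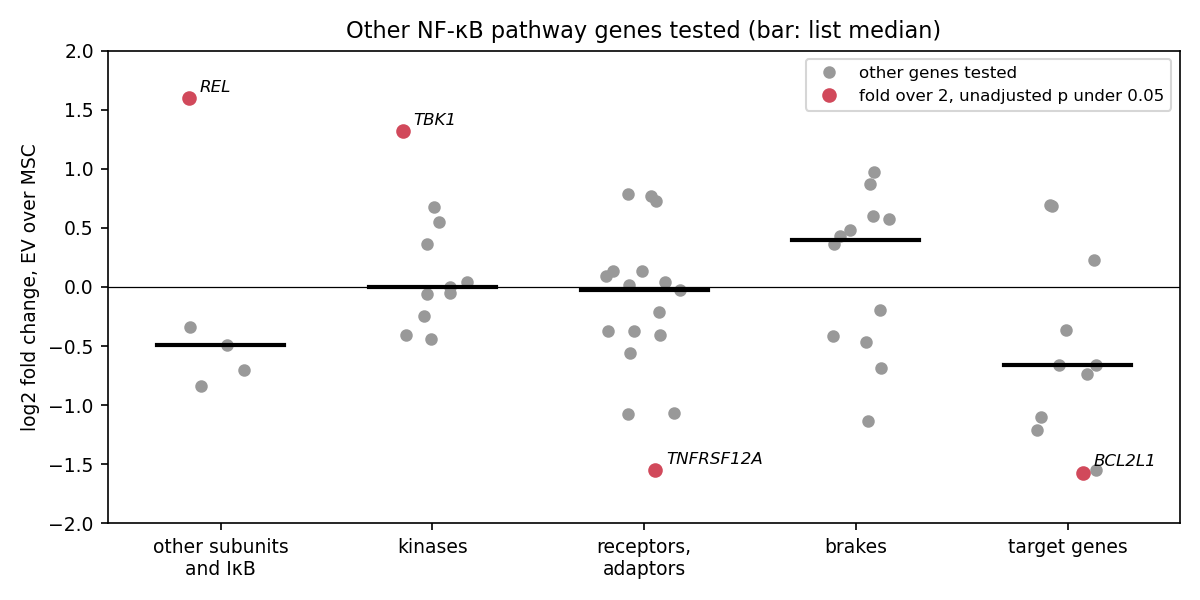
Log2 fold change of EV over MSC (vertical axis) for the 56 tested genes of 5 NF-κB pathway lists, with horizontal bars at the list medians and red points for a fold change over 2 with an unadjusted p-value under 0.05. The points of each list lie on both sides of 0, and only REL, TBK1, TNFRSF12A and BCL2L1 are red.

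Of 12 kinase genes, 11 were tested, with a median log2 fold change of 0.00, and 1 passed the thresholds of the study. TBK1, an IκB kinase relative that acts in innate immune signalling and phosphorylates c-Rel and p65, gave 24, 27 and 28 reads from MSCs, against 71, 77 and 50 from EVs. It was higher in EVs by 1.32 on the log2 scale, with a standard error of 0.35, an unadjusted p of 0.00558 and adjusted p-values of 0.219 in edgeR and 0.0431 in DESeq2. The entry used lies on a short unplaced scaffold, from base 7 to 3208, and holds 277 of 963 reads, since TBK1 has 11 other entries on other scaffolds, several of which overlap between the groups. Summed over all entries its reads were 127, 51 and 104 in MSCs and 221, 286 and 174 in EVs, which do not overlap, and the sum was not tested. None of the canonical IκB kinase genes passed either threshold. Their log2 fold changes were 0.37 for CHUK, -0.44 for IKBKB and -0.41 for IKBKG, the scaffold subunit, with adjusted p-values of 0.668, 0.512 and 0.519 from edgeR. Each of them also has a second entry, at 0 reads for CHUK and IKBKG and at 59 for IKBKB, so their counts are uncertain. IKBKE, the closest relative of TBK1, was at 0.00 (standard error 0.37). These 4 genes were named after their values were seen.

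Of 25 receptor and adaptor genes, 17 were tested, with a median log2 fold change of -0.03. TNFRSF12A, the receptor of the cytokine TWEAK, gave 141, 177 and 101 reads from MSCs, against 59, 60 and 27 from EVs. It was lower in EVs, at -1.55 on the log2 scale with a standard error of 0.40, an unadjusted p of 0.00537 and adjusted p-values of 0.219 in edgeR and 0.0212 in DESeq2. Its entry overlaps 5 others, among them a second TNFRSF12A entry, so its counts are uncertain. Summed over both, the reads were 220, 261 and 173 in MSCs and 103, 100 and 47 in EVs. MYD88, the adaptor of interleukin-1 and Toll-like receptors, and RIPK1, which links the TNF receptor to the kinases, had log2 fold changes of 0.02 (standard error 0.23) and 0.04 (standard error 0.28). Both were named after their values were seen.

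Of 18 genes of brakes and modulators, 12 were tested, with a median log2 fold change of 0.40, a lowest value of -1.13 and a highest of 0.98, and 0 passed the thresholds of the study, although 3 had an unadjusted p-value under 0.05. These 3, named after their values were seen, were PELI1, COMMD1 and OTUD7B. PELI1, a ubiquitin ligase of receptor signalling, had a log2 fold change of 0.87 (adjusted p = 0.275 from edgeR). COMMD1, which promotes the breakdown of nuclear RELA, had one of -0.69 (adjusted p = 0.251), and OTUD7B, a deubiquitinase of TRAF3, had one of 0.58 (adjusted p = 0.287). Groups did not overlap for 4 genes above and 1 below, beside 14.3% and 13.6% of all entries, and the share of all entries with an unadjusted p-value under 0.05 was 16%.

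Target genes were the list read least completely. Of 32 genes, 30 had an entry, 15 of those were listed at 0 reads and 4 had too few reads. All 15 entries at 0 share their span with another entry. SOD2, for instance, was listed at 0 under an unnamed entry with 22875 reads. The 11 genes tested had a median log2 fold change of -0.66, and 10 of them also share their span with another entry. BCL2L1, IL6 and CXCL8, given below, are among these, so their counts are uncertain. BCL2L1, which encodes the survival protein BCL-XL, gave 57, 27 and 37 reads from MSCs, against 13, 9 and 16 from EVs. It was lower in EVs, at -1.57 on the log2 scale with a standard error of 0.47, an unadjusted p of 0.0113 and an adjusted p of 0.243 in edgeR. IL6, of which NFKBIZ is a known regulator, gave 8757, 9742 and 2803 reads from MSCs, against 6790, 4412 and 1889 from EVs. Its groups overlapped, and edgeR fitted -0.74 with a standard error of 0.57 and an adjusted p of 0.504. The chemokine gene CXCL8 gave 143, 14 and 95 reads from MSCs, against 23, 5 and 47 from EVs (adjusted p = 0.417 from edgeR). IL6 and CXCL8 were named after their values were seen.

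Likeness to NFKBIZ was measured as the distance between log2 CPM values over the 6 libraries after each gene had been centred on its own mean. Among 7729 other symbols, the nearest were PROS1 (distance 0.439), ZNF770 (0.459), SEMA3A (0.481), MAP3K1 (0.490) and TBK1 (0.498). These genes encode an anticoagulant, a zinc-finger protein, a secreted guidance protein, a MAP kinase kinase kinase and the kinase described above. PROS1, the gene of protein S, had 77.1 ± 10.8 CPM in MSCs and 182 ± 9.93 CPM in EVs (SD, n = 3 each), and MAP3K1 had 3.16 ± 0.485 CPM in MSCs and 10.8 ± 2.36 CPM in EVs. Of the other genes of the group, TNFAIP6 was the nearest to NFKBIZ, at rank 65, and NFKBIA the farthest, at rank 7062. All 6 libraries enter this distance, so the difference between groups is part of it.

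Small RNA libraries of the same pigs, which had no part in choosing the genes, were read for miRNAs linked to NF-κB. Among these are miR-146a and miR-155, which NF-κB induces and of which the former targets the adaptors TRAF6 and IRAK1. Of 14 names on the list, miR-223 was not listed in the table, and miR-9, miR-9-1 and miR-9-2 held identical values, which left 11 distinct miRNAs. Of these, edgeR called 0 by the adjusted threshold, 1 had an unadjusted p-value under 0.05, and that miRNA, miR-21, also passed the fold change. Among all 220 miRNAs tested, 0% passed the adjusted threshold, 30.5% had an unadjusted p-value under 0.05, and 6.36% were higher and 24.1% lower by the thresholds of the study.

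Abundant in most mesenchymal cells, miR-21 had 256807, 300496 and 723769 CPM (of the library total, here without TMM) in MSCs, against 125505, 83481 and 67757 CPM in EVs. All EV libraries were below all MSC libraries, and the log2 difference was -3.32, with a standard error of 1.21, an unadjusted p of 0.0276 and an adjusted p of 0.108 in edgeR. This rests on single libraries, with -1.43 and an unadjusted p of 0.183 without the MSC library of pig 3, 0.0853 without the EV library of pig 2 and 0.0561 without that of pig 3. With the pig as a block in edgeR it was -2.38 with an unadjusted p of 0.214, and miR-199a-5p was the 1 listed miRNA past the thresholds of the study. The share of all miRNAs past them with the block is not given here, so nothing particular to miR-199a-5p is read from it.

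For miR-146a-5p the table held estimated counts of 10646.5, 9541.5 and 25 in MSCs of pigs 1, 2 and 3, and of 504.5, 19 and 252.5 in their EVs. Scaled to the library these were 692, 649 and 2.64 CPM in MSCs and 768, 977 and 13742 CPM in EVs. The libraries of pig 3 stood apart in both groups, and the log2 difference of 2.54 had a standard error of 1.53 (adjusted p = 0.322 from edgeR). Their small RNA titles have another form than those of pigs 1 and 2, so pig and set of libraries cannot be told apart. In miR-146b, a close relative with the same seed, pig 3 instead had the highest MSC level, with counts of 261.5, 635.5 and 9599 in MSCs, against 352.5, 0 and 71.5 in EVs (log2 difference -0.69, adjusted p = 0.884 from edgeR). Without the MSC library of pig 3 its difference turned to 4.67, with the pig as a block it was 0.39, and leaving out 1 library moved that of miR-146a-5p between 1.27 and 3.53.

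In MSCs miR-155-5p reached 615, 734 and 286 CPM, and in EVs 263, 0 and 980 CPM, where the count of 0 allows up to 154 CPM. Its groups overlapped, with a log2 difference of -1.64 and a standard error of 1.29 (adjusted p = 0.460 from edgeR). The other 7 had log2 differences of -2.64 for miR-16, -2.55 for miR-199a-5p, -0.99 for miR-125b, -0.81 for miR-125a, -0.23 for miR-181b, 0.69 for miR-181a and 0.74 for miR-9, with adjusted p-values of 0.272 or more in edgeR. In small RNA the TMM factor was 0.306 for the MSC library of pig 3 and 3.24 for its EV library. With DESeq2-style scaling in edgeR, miR-125a turned to 0.12 and miR-181b to 0.75. With the pig as a block, miR-181a turned to -2.73 and miR-9 to -2.56. The rest of the 7 kept their sign in both settings. Without the EV library of pig 3, 5 of the miRNAs (miR-16, miR-181a, miR-181b, miR-9 and miR-125a) had lower EV levels with an adjusted p under the threshold. The share of all miRNAs past the threshold in that setting is not given here. Nothing particular to these 5 is therefore read from it. The EV libraries of small RNA were shallow, with totals of 656888, 19454 and 18374 counts against 9455607 or more in MSCs, so that 3 counts stood for 4.57, 154 and 163 CPM.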

How the data were processed

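Messenger RNA and small RNA were sequenced from MSCs and EVs of 3 pigs. For mRNA the authors aligned reads with TopHat and counted them on genes with featureCounts, and the deposited counts are raw, while the deposited RPKM values are scaled by model length and library total. The submitters list susScr3, TopHat and HTSeq. The labels name a stranded total RNA kit and the study's methods another TruSeq kit. For small RNA the deposited values are expected counts from CAP-miRSeq, which are fractional for some miRNAs and were rounded here. A second deposited table of scaled miRNA values was not used. The titles number the pigs differently in small RNA, where those of pig 3 also have another form, and the pig label was followed.

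The 3 entries shifted by a column were left out. The entry with the most reads was used for each symbol, and 11804 of 25322 Ensembl identifiers had a symbol. EVs were compared with MSCs in edgeR 4.0.16 (TMM, filterByExpr, quasi-likelihood test, Benjamini-Hochberg adjustment over all entries), without pairing. Alternatives were DESeq2 1.42.0, limma 3.58.1 on log2(RPKM + 1) and log2(RPKM + 0.1), DESeq2-style scaling in edgeR, no filter, a block for the pig, and dropping each library in turn. The limit of a count of 0 was 3 counts and covers counting error only.

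The genes and lists were chosen with earlier results of these data known. Named were all members, all other subunit and IκB genes, up to 8 genes of each other list past the thresholds of the study, all listed miRNAs found in the table, and the 5 entries nearest to NFKBIZ. The pig labels pair the libraries. In mRNA, deviations from group means of same-pig libraries correlated at 0.251, 0.384 and 0.408, and in small RNA at -0.227, -0.019 and -0.13.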

Additional observations from a re-analysis of the deposited data

How the results depend on the processing

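NFKBIZ against the other 6 genes ranged from 1.29 to 1.76 over the 12 alternatives (1.37 to 1.76 when 1 library was left out), and the median log2 fold change of the 7 genes from -0.35 to -0.10, with no gene changing sign. For NFKBIZ the lowest value, 1.14, came from limma on log2(RPKM + 1). For all entries, the adjusted counts of higher and lower entries were 259 and 186 with DESeq2, 61 and 75 with the pig as a replicate block, 1 and 10 with limma on log2(RPKM + 1), 0 and 5 with limma on log2(RPKM + 0.1), and 0 and 5 without the filter. The unadjusted counts were 233 and 194 with limma on log2(RPKM + 1), and leaving out 1 library gave 511 to 948 higher and 270 to 607 lower, the lowest of both without EV replicate 2. Of the 56 pathway genes, DESeq2 called 2 higher and 1 lower after adjustment, and the replicate block 0, which changed no adjusted call among them. By the thresholds of the study, 4 were higher and 5 lower with the block, 1 and 1 with limma on log2(RPKM + 1), and 4 lower without the filter. Leaving out 1 library gave 2 to 4 higher and 2 to 6 lower, the most of both without MSC replicate 1, and 5 lower without EV replicate 3. Of the miRNAs, 0 to 5 passed the adjusted and 0 to 5 the unadjusted thresholds when 1 library was left out, the 5 without EV replicate 3, and 2 passed the latter without EV replicate 1. Shares of all miRNAs in these settings are not given, so these counts are not read as particular to the listed miRNAs. Apart from the settings' own construction (fewer samples, more entries, a pseudocount), the cause of the shifts between settings was not tested. The shallow EV libraries limit the miRNA results, and entries that share a span limit the read of target genes.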
